A study of Homo sapiens with 6 samples.

Results

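The proteasome is the large protease that degrades ubiquitin-tagged proteins. Its core particle is a barrel of alpha and beta rings, and 3 of the beta subunits, PSMB5, PSMB6 and PSMB7, carry the active sites of the standard form. A regulatory cap of ATPases and non-ATPase subunits binds, unfolds and feeds in the tagged protein, activators can sit on the barrel in place of the cap, and dedicated chaperones put core and cap together. The factor NFE2L1 is known to raise transcription of these genes together when proteasome activity falls.

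The proteasome genes described here are the rows whose Ensembl ID maps to a protein-coding symbol of PSMA, PSMB, PSMC, PSMD, PSME or PSMG with a number, leaving out the immunoproteasome subunits PSMB8 and PSMB9. They number 47 of the 30735 rows. By role they are 8 alpha ring genes, 9 beta ring genes, 6 ATPases, 11 non-ATPase cap subunits, 4 activators and 7 assembly chaperones. The other 2, PSMC3IP and PSME3IP1, match the letters of the rule but encode binding partners and not subunits.

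PANC-1, a human pancreatic cancer cell line, was sequenced at the RNA level after Lipofectamine 3000 transfection with CD73 siRNA (3 samples) or with negative control siRNA (3 samples). CD73, the product of NT5E, is a cell surface enzyme that makes adenosine. The study's methods list one CD73 siRNA product, a figure legend speaks of separate knockdown experiments, and neither says whether samples of equal number were made together. If they shared a culture, the p-values measure only the spread between these samples, which may then be technical.

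NT5E measured 3.36, 6.85 and 8.22 RPKM (reads divided by exon length and by library size) in CD73 siRNA samples 1, 2 and 3, and 13.96, 13.87 and 17.14 RPKM in control samples 1, 2 and 3. The ratio of the means was 0.41. Library totals ran from 15009105 to 16836202 reads, and the 41 proteasome genes tested rested on 88 to 24262 reads per sample. Of 15 cell type markers, 11 had a row. The ductal keratins KRT8 (30.01 to 158 RPKM) and KRT18 (36.3 to 87.0 RPKM) were high, KRT19 reached 5.39 RPKM, EPCAM 1.71 RPKM and KRT7 only 0.107 RPKM. The leukocyte and endothelial markers PTPRC, CD68, CD79A, CDH5 and PECAM1 stayed at or under 0.158 RPKM, and the fibroblast marker COL1A1 lay between 8.97 and 19.1 RPKM.

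Proteasome mRNA was abundant in these cells, with a median over the 41 tested genes of 30.9 RPKM against 6.90 RPKM over all 12527 tested genes. The beta ring had a median of 81.6 RPKM over its 9 genes and was led by PSMB7 at 125 RPKM, the trypsin-like subunit. PSMB5, the chymotrypsin-like subunit targeted by bortezomib, measured 105 RPKM, and PSMB6, the caspase-like subunit, 74.9 RPKM. The alpha ring, which gates the barrel, was more uneven. PSMA7 reached 80.2 RPKM, whereas the median over its 8 genes was 8.55 RPKM. That median rests on PSMA1, PSMA2 and PSMA6, whose levels are uncertain, and on PSMA8, and over the 5 alpha ring genes that passed the filter on low values it was 30.9 RPKM.

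Among the ATPases, which form the unfolding motor, levels ran from 12.9 RPKM for PSMC1 to 557 RPKM for PSMC4, around a median of 25.1 RPKM. PSMC4 stood above 99.9% of the 16708 coding genes. Its 6 values were 562, 560 and 604 RPKM in CD73 siRNA samples 1, 2 and 3 and 494, 560 and 561 RPKM in the controls. The non-ATPase cap subunits ran from PSMD6 (8.41 RPKM) to the large scaffold PSMD2 (141 RPKM). The 4 activators lay close together, between PSME2 at 17.0 RPKM and PSME3 at 37.4 RPKM, and the chaperones had a median of 14.3 RPKM with PSMD10 highest at 40.9 RPKM.

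**Figure D1:**
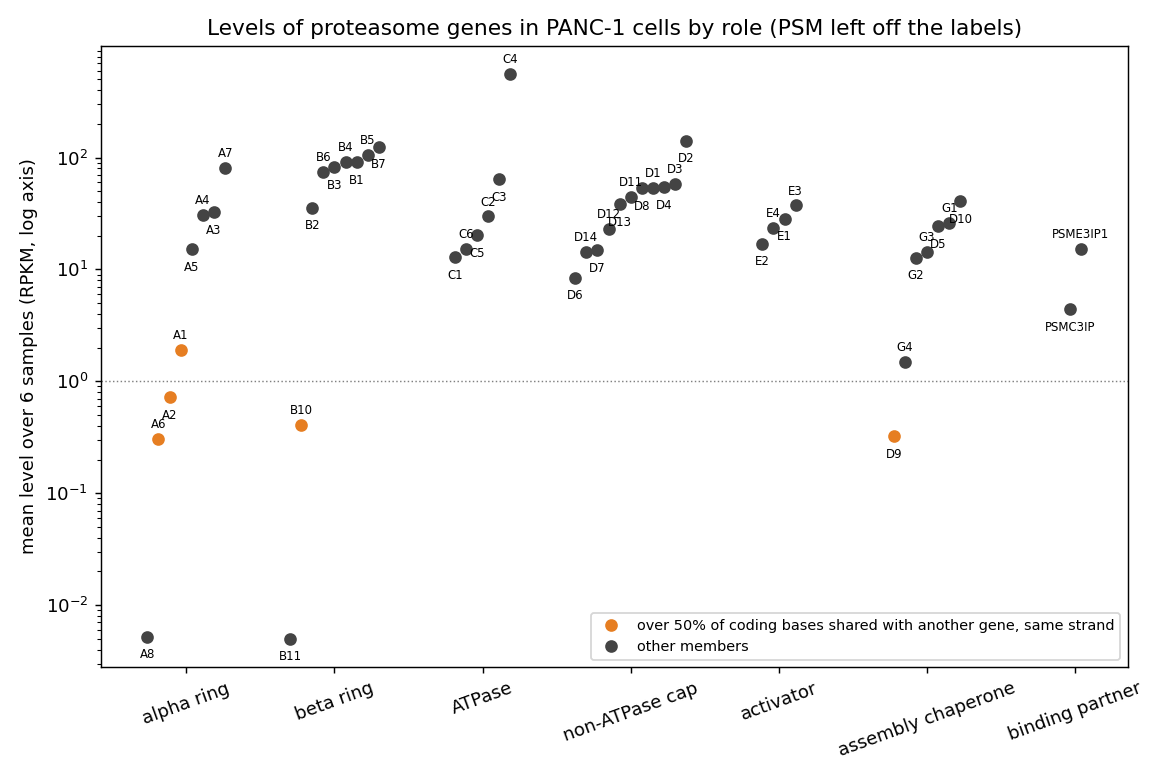
Mean level over the 6 samples of each of the 47 proteasome genes, in RPKM on a log axis, grouped by role. Orange points are the 5 genes that share over 50% of their coding bases with another gene on the same strand, all at 1.92 RPKM or less, and the dotted line marks 1 RPKM.

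A few subunits that every proteasome needs had very low values. PSMA6 had a mean of 0.306 RPKM and PSMA2 of 0.722 RPKM. In GENCODE release 29, 5 members share more than 50% of their coding bases with another annotated gene on the same strand (58.3% to 97.1%). These were PSMA2 (chromosome 7), PSMA1 (chromosome 11, 88.6%), PSMA6 (chromosome 14, 70.4%), PSMD9 (chromosome 12, 58.7%) and PSMB10 (chromosome 16, 58.3%), with means between 0.306 and 1.92 RPKM. On the same strand, the other 42 members share at most 0.125% of theirs. With both strands counted, the largest shares among them were 47.7% for PSMC1, 28.4% for PSMD7, 16.0% for PSMC3IP and 10.5% for PSMC5. Apart from PSMA8 and PSMB11, which are known for their restriction to testis and thymus, the 40 others began at 1.48 RPKM (PSMG4) and 4.39 RPKM (PSMC3IP) and had a median of 31.8 RPKM. Whether reads in the shared stretches were dropped when the authors counted was not tested, and the levels of these 5 genes are therefore uncertain.

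The filter on low values (at least 1 RPKM in at least 3 samples) removed 6 members. These were PSMA2, PSMA6, PSMA8, PSMB10, PSMB11 and PSMD9. PSMA8 was listed at 0 in 5 samples with 1 read in CD73 siRNA sample 3, and PSMB11 had 1 read, in CD73 siRNA sample 2. The 41 genes that passed were 5 of the alpha ring, 7 of the beta ring, all 6 ATPases, all 11 non-ATPase cap subunits, all 4 activators, 6 chaperones and both binding partners.

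By treatment, the proteasome genes moved little. With limma on log2(RPKM + 1), 0 of the 41 passed an unadjusted p of 0.01, the study's limit for counting genes, and 3.13% of all tested genes did. None passed an adjusted p of 0.05 (0.00798% of all genes), the smallest being 0.357. NT5E, the siRNA target, did not pass it either in the same limma fit (unadjusted p = 0.0014, adjusted p = 0.303). A member that fails this limit is therefore not shown to be unchanged. At an unadjusted p of 0.05, 3 members passed (PSMC3, PSMB7 and PSME2), with 12.1% of all genes. With the replicate number as a block, 0 members passed 0.01 (7.57% of all genes) and 6 passed 0.05 (23.3% of all genes), the additional ones being PSMA3, PSME3 and PSMD2. No member passed an adjusted p of 0.05 with the block (0% of all genes), the smallest being 0.135 for PSMC3. NT5E had an unadjusted p of 0.00026 and an adjusted p of 0.113 in that limma fit. Intervals, SEs and adjusted p-values given below for treatment are from the fit without the block unless another is named. In bulk RNA of this kind, a change in the number of cells of a type and a change in the RNA per cell cannot be told apart.

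The intervals were narrow. The 95% interval of the fold change lay within 1.5-fold either way (0.58 on the log2 scale) for 39 of the 41 genes. The 2 exceptions were PSMC3 and PSME2. The median residual SD of the 41 genes was 0.112 on the log2 scale, against 0.166 over all tested genes. The median size of their log2 fold change was 0.12 against 0.14. Their median level was also higher, at 30.9 against 6.90 RPKM, and genes of matched level were not compared. Only PSMC3 had a fitted change past 1.5-fold, as did 3.17% of all tested genes.

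**Figure D2:**
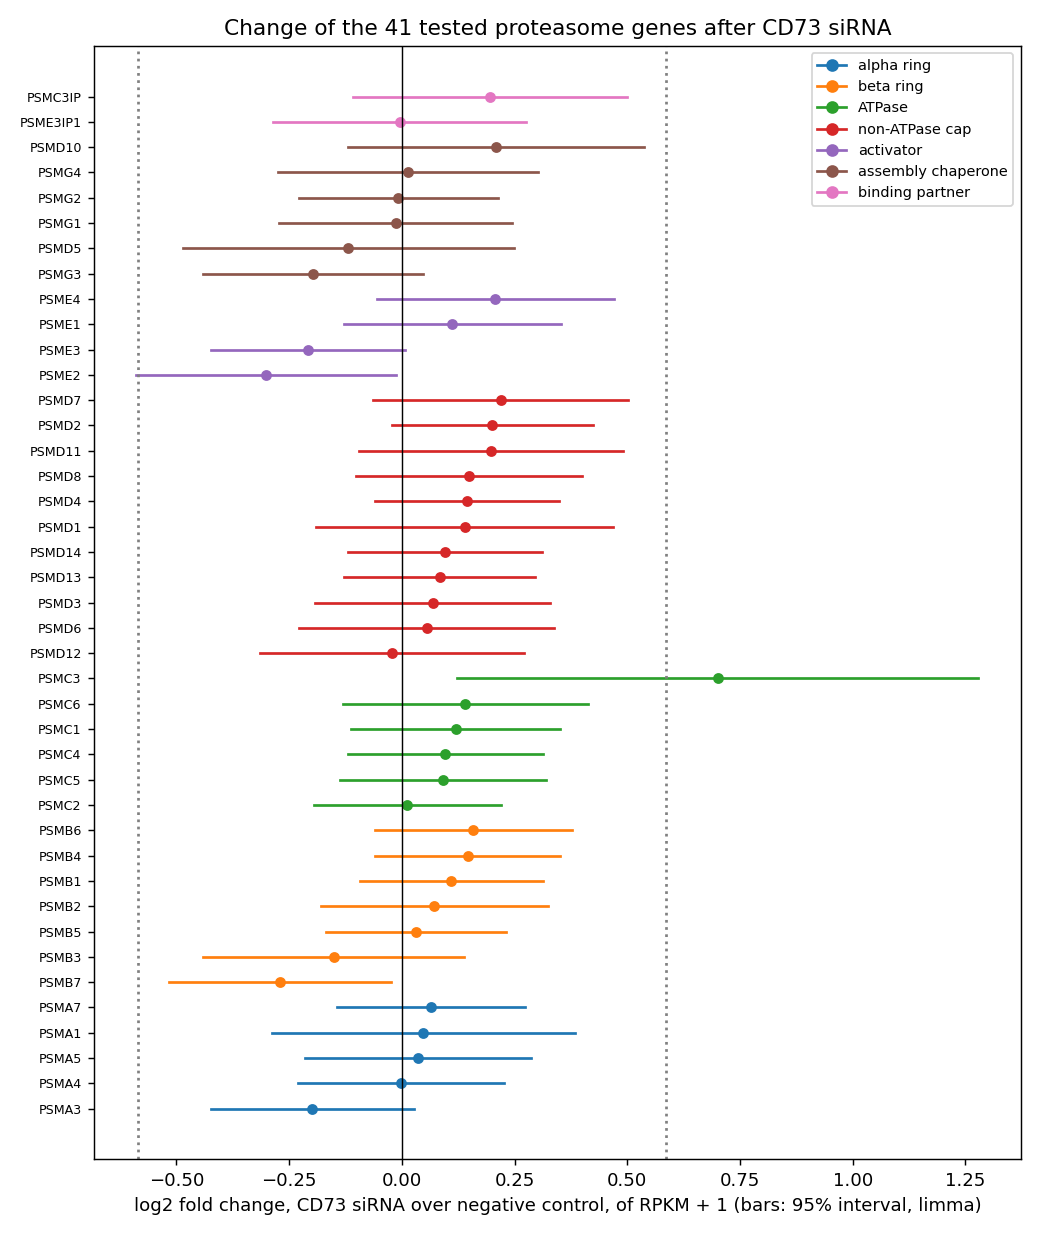
Log2 fold change (CD73 siRNA over negative control, on RPKM + 1) of the 41 tested proteasome genes with 95% intervals from limma, coloured by role. Dotted lines mark 1.5-fold. Most cap genes lie right of 0 and PSMC3 stands alone at 0.70.

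PSMC3 (ENSG00000165916, chr11:47418769-47426473, minus strand) encodes an ATPase of the cap base. It measured 78.9, 75.5 and 80.9 RPKM in CD73 siRNA samples 1, 2 and 3 and 30.1, 65.7 and 55.2 RPKM in control samples 1, 2 and 3. The treated samples lay close together above every control, while the controls were spread widely with sample 1 far below the other two. The means were 78.4 ± 2.71 and 50.3 ± 18.3 RPKM (SD, n = 3 each), and limma gave a log2 fold change of 0.70 with an SE of 0.25 and an adjusted p of 0.357. The difference was 1.36, 0.20 and 0.54 on the log2 scale within numbers 1, 2 and 3. Without control sample 1 the log2 fold change was 0.38 (adjusted p = 0.661, limma). Without control sample 2 it was 0.93 and passed the unadjusted limit of 0.01 (adjusted p = 0.118, limma), which no other member did with any library left out.

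The beta ring split by gene, with PSMB7 lower and PSMB4 higher. PSMB7 read 101, 127 and 112 RPKM after CD73 siRNA and 134, 139 and 136 RPKM in the controls, which stood together above all treated samples. Its log2 fold change was -0.27 with an SE of 0.11 and an adjusted p of 0.382 (limma). PSMB4, a structural beta subunit, was at 99.7, 90.3 and 97.2 RPKM after CD73 siRNA and at 84.6, 84.9 and 89.7 RPKM in the controls, and no treated sample reached down to a control. The other 2 catalytic subunits overlapped between groups. PSMB5 was nearly level, at 107, 103 and 109 RPKM after CD73 siRNA and 109, 100 and 103 RPKM in the controls, and PSMB6 read 80.3, 75.4 and 81.3 RPKM against 76.4, 69.4 and 66.6 RPKM. Their log2 fold changes were 0.03 and 0.16.

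In the alpha ring, PSMA3 was the member with separate groups, at 29.7, 29.9 and 31.1 RPKM after CD73 siRNA and 33.4, 33.1 and 38.3 RPKM in the controls. Its log2 fold change was -0.20, or -0.13 without control sample 3. PSMA7 had the most positive change of the ring, 0.06, with values of 83.9, 77.4 and 84.9 RPKM against 82.3, 76.1 and 76.8 RPKM that overlapped.

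In the cap, 16 of the 17 tested genes had a higher fitted mean after CD73 siRNA (52% of all tested genes), the exception being PSMD12 at -0.02. The number higher was 15 after median centring and all 17 after conversion to TPM. By class, higher means were seen for 6 of 6 ATPases (median log2 fold change 0.11) and 10 of 11 non-ATPase subunits (median 0.14). PSMD2, the cap scaffold, measured 150, 143 and 161 RPKM after CD73 siRNA and 122, 139 and 133 RPKM in the controls. PSMD4, a ubiquitin receptor, measured 59.3, 55.7 and 56.5 RPKM after CD73 siRNA and 49.6, 53.9 and 51.4 RPKM in the controls. Both had all treated samples above all controls, by small margins, and log2 fold changes of 0.20 and 0.14. PSMD7, partner of the deubiquitinase PSMD14, measured 17.1, 15.8 and 15.4 RPKM after CD73 siRNA and 11.5, 14.7 and 15.003 RPKM in the controls, a log2 fold change of 0.22 in which control sample 1 stood apart and which was 0.11 without it. PSMC1 also had separate groups, with 13.51, 13.46 and 13.37 RPKM after CD73 siRNA against 11.2, 12.4 and 13.36 RPKM in the controls. Its treated sample 3 and control sample 3 were practically equal, and its log2 fold change was 0.12, or 0.06 without control sample 1. Of its exon bases, 75.8% overlap NRDE2 on the opposite strand, and 13 pseudogenes carry its name, 4 of them among the rows, so its reads are less certain.

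The difference in the cap varied with the replicate number. Within number 1, 17 of 17 cap genes were higher in the treated sample (median log2 difference 0.21), within number 2 it was 10 (0.03), and within number 3 it was 15 (0.08). Over all tested genes the shares higher were 51.9%, 49.6% and 52.3%. In all, 9 of the 17 were higher in every number, as were 27% of all tested genes, and 0 were lower in every number, against 24.5%. Control sample 1 was the lowest of the 6 samples for 14 of the 17 cap genes and for 21 of the 41 members, as it was for 26.1% of all tested genes. Without it, 15 of 17 cap genes were still higher but the median was 0.07 in place of 0.12. In the core, by contrast, control sample 1 was lowest for 4 of 12 genes, and the medians within numbers 1, 2 and 3 were 0.07, 0.03 and -0.05. The log2 difference of NT5E was -1.78, -0.92 and -0.98 within numbers 1, 2 and 3. In number 1 its treated sample (3.36 RPKM) was the lowest of the 6, and its control (13.96 RPKM) lay between the other controls. For the cap, the median deviation from each gene's mean was -0.17 in control sample 1. It was 0.07, 0.02 and 0.10 in CD73 siRNA samples 1, 2 and 3. Whether the cap difference went with the knockdown or with control sample 1 was not tested, nor was the difference between cap and core.

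**Figure D3:**
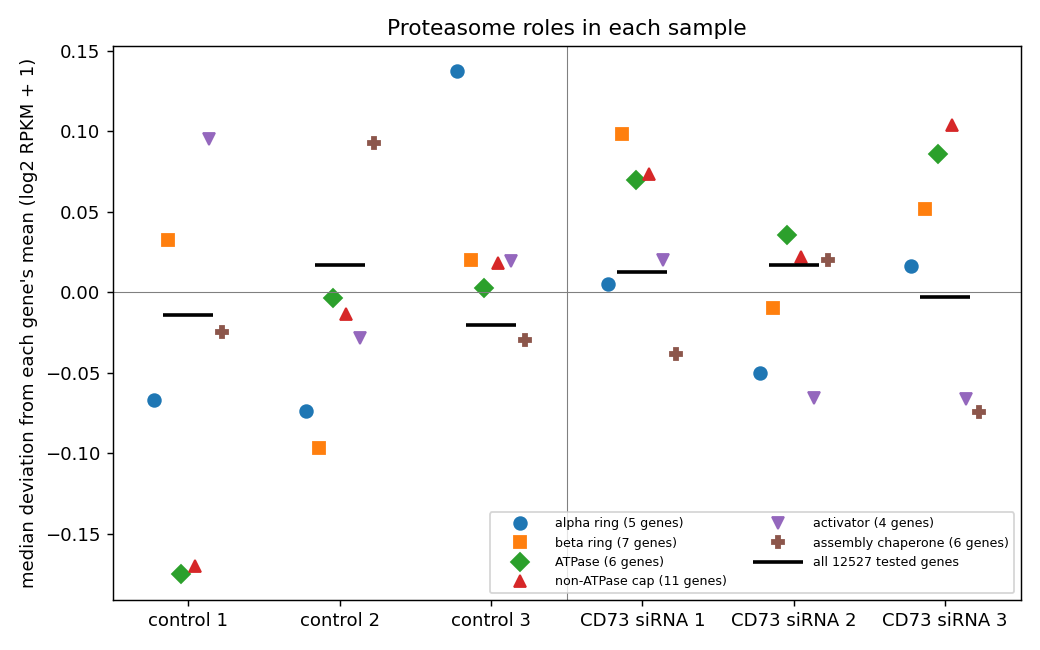
Median deviation of each role's tested genes from their 6-sample means, on the log2(RPKM + 1) scale, in each sample, with the same median over all 12527 tested genes as a black bar. The ATPases (-0.18) and non-ATPase cap subunits (-0.17) are lowest in control sample 1, where the activators are at 0.09.

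The activators showed no common direction. PSME1 and PSME2 encode the partners of the interferon-inducible activator, and they differed in sign. PSME2 (chr14:24143362-24147570, minus strand) measured 15.6, 15.3 and 14.3 RPKM after CD73 siRNA and 22.4, 17.7 and 16.8 RPKM in the controls, every treated sample below every control. Its log2 fold change was -0.30 with an SE of 0.12 and an adjusted p of 0.396 (limma), whereas that of PSME1 was 0.11 with overlapping groups. Without control sample 1, the highest of the controls, the value for PSME2 was -0.18 and no longer passed an unadjusted p of 0.05. PSME3, the subunit of the nuclear activator, measured 33.8, 34.1 and 35.9 RPKM after CD73 siRNA and 41.7, 37.3 and 41.5 RPKM in the controls, again without overlap, with a log2 fold change of -0.21. PSME4, the large single-chain activator, was at 27.8, 23.2 and 24.6 RPKM after CD73 siRNA and at 20.4, 20.6 and 24.1 RPKM in the controls, overlapping, with a log2 fold change of 0.21, or 0.14 without CD73 siRNA sample 1.

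The assembly chaperones had a median log2 fold change of -0.01, with 2 of 6 higher. PSMG3 read 12.9, 13.2 and 13.7 RPKM after CD73 siRNA and 17.1, 15.1 and 14.0 RPKM in the controls, a log2 fold change of -0.20 with no overlap that was -0.12 without control sample 1. PSMD10, also known as gankyrin and a chaperone of the cap base, read 50.8, 43.6 and 37.6 RPKM after CD73 siRNA and 35.2, 43.9 and 34.5 RPKM in the controls. Its treated samples overlapped the controls and differed more among themselves than those of most members, and its log2 fold change was 0.21. It was 0.10 without CD73 siRNA sample 1, 0.31 without CD73 siRNA sample 3 and 0.32 without control sample 2. The number higher depended on scaling for this role, with 1 after centring each sample on its median and 4 after conversion to TPM.

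Across roles, 29 of the 41 genes (70.7%) had a higher fitted mean after CD73 siRNA, and 52% of all tested genes did. The median log2 fold change was 0.07 against 0.01 over all genes, 0.05 with 27 genes higher after median centring and 0.10 with 34 higher after conversion to TPM. Without control sample 1 it was 0.06, with 27 genes higher. Groups did not overlap for 11 of the 41 (26.8%), against 18.4% of all tested genes. Of these, 6 were higher after CD73 siRNA (10.3% of all genes), namely PSMB4, PSMC1, PSMC3, PSMD2, PSMD4 and PSMD7, of which 5 belong to the cap. The 5 lower ones (8.07% of all genes) were PSMA3, PSMB7, PSME2, PSME3 and PSMG3, none of them a cap gene. For each of these genes an exact permutation test of 3 samples against 3 gave p = 0.1, the smallest it can give. That value follows from the lack of overlap by which they were picked, and the test ignores the replicate number.

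Below the filter, PSMB10 and PSMD9 also had separate groups. PSMB10, the inducible counterpart of PSMB7 in the immunoproteasome, was at 0.235, 0.206 and 0.353 RPKM after CD73 siRNA and 0.673, 0.452 and 0.539 RPKM in the controls, on 6 to 20 reads. PSMD9, a chaperone of the cap base, was at 0.241, 0.290 and 0.257 RPKM after CD73 siRNA and 0.441, 0.308 and 0.395 RPKM in the controls, on 34 to 62 reads. Both lie among the genes with shared coding bases.

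**Figure D4:**
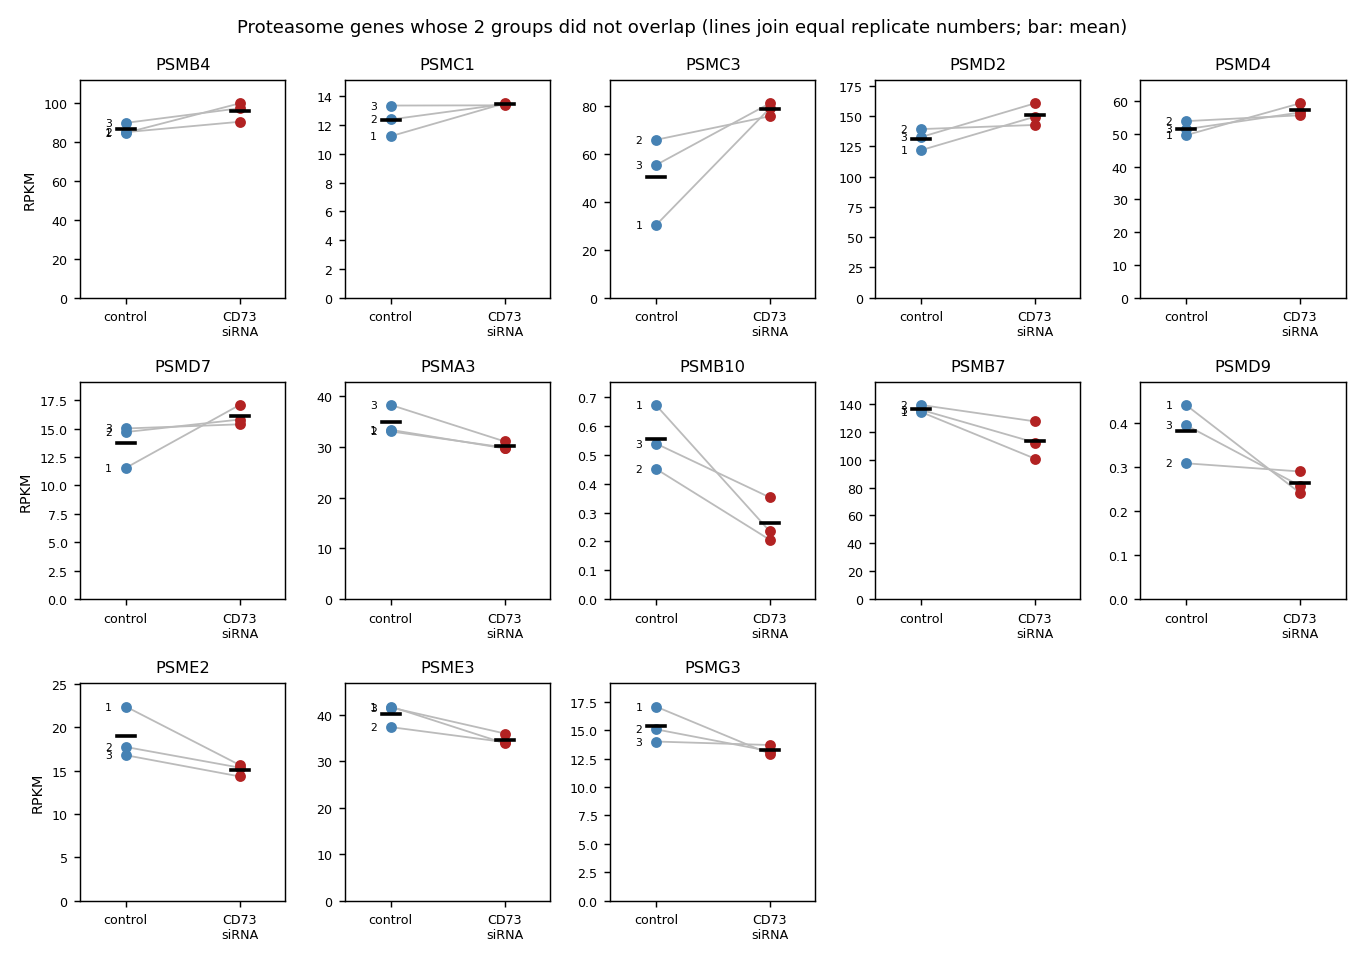
RPKM per sample of the 13 proteasome genes whose CD73 siRNA and control samples did not overlap, including PSMB10 and PSMD9 below the filter. Lines join equal replicate numbers and black bars are group means; 6 genes are higher and 7 lower after CD73 siRNA.

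By replicate number, 1 of the 41 genes passed an unadjusted p of 0.01 (limma F test beside the treatment term), and 9.27% of all tested genes did. This was PSMD5, a chaperone of the cap base, with 23.8, 27.6 and 19.0 RPKM in CD73 siRNA samples 1, 2 and 3 and 24.4, 29.6 and 22.3 RPKM in the controls. In both groups sample 2 was highest and sample 3 lowest, and the adjusted p was 0.102. It did not pass 0.01 after median centring or without the treatment term. None passed an adjusted p of 0.05 (1.82% of all genes). The next 4 by p were PSMD1 (0.0511), PSME3IP1 (0.0531), PSMB3 (0.0563) and PSMD12 (0.0571) in the same limma test. PSMB3, a structural beta subunit, read 76.8, 70.5 and 83.9 RPKM after CD73 siRNA and 95.3, 73.2 and 89.5 RPKM in the controls, with sample 2 lowest in both groups. PSMD1, a second scaffold of the cap, read 60.7, 48.3 and 60.0 RPKM after CD73 siRNA and 47.3, 45.7 and 60.6 RPKM in the controls, again lowest in sample 2.

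The promoters of these genes were searched for the antioxidant response element, the sequence that NFE2L1 and its relative NFE2L2 bind. The motif was TGACNNNGC, or GCNNNGTCA on the other strand, within 250 bases before and 50 after the start of transcription in RefSeq (GRCh38.p14). A promoter was given for 41 of the 47 members, and 12 of these (29.3%) held the motif. The motif was held by 13.6% of all 27305 promoters and by 14.6% of the 13171 promoters of protein-coding genes with a row. It stood in 3 of 4 activators, 4 of 6 chaperones, 3 of 10 non-ATPase cap genes, 1 of 6 ATPases, 1 of 6 beta ring genes, 0 of 7 alpha ring genes and 0 of 2 binding partners. The matches of the activators, which include PSME2 with its separate groups, and those of PSMC4, PSMD3 and PSMD5 are printed 5′ to 3′ on the gene's strand with the motif in capitals.
PSME1 (chr14:24136099-24136125, plus strand): tggcagggcTGACCCCGCctcctccat
PSME2 (chr14:24146768-24146794, minus strand): cctggactgTGACCCAGCcagcaccgc
PSME4 (chr2:53971010-53971036, minus strand): ccggcggctGCAGCGTCAccagcagag
PSMC4 (chr19:39971183-39971209, plus strand): cagaggccgGCTTGGTCActatggagg
PSMD3, first match (chr17:39980761-39980787, plus strand): cccctttgtTGACTCGGCcatcggcct
PSMD3, second match (chr17:39980831-39980856, plus strand): tttgcagctGCTCCGTCAtcgtgcgg
PSMD5 (chr9:120843039-120843065, minus strand): ggctacagtTGACACGGCcctaacgga

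Among the tested members with a promoter, the 11 with the motif had a median log2 fold change of -0.01 and 5 of them were higher after CD73 siRNA. The 24 without it had a median of 0.09 and 20 were higher, beside 52% of all tested genes. Motif and role overlapped. The motif was commonest in activators and chaperones, whose median log2 fold changes were -0.05 and -0.01. In the cap, with a median of 0.12, it stood in 3 of 10 non-ATPase genes and 1 of 6 ATPases. The motif was not tested apart from role. A match is a run of letters in a window and was not tested for binding, and a promoter without one may hold the element in another form or place.

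Other genes of the pathway were described from a list of 34, all tested, that covers the immunoproteasome subunits PSMB8 and PSMB9, cap-bound ubiquitin enzymes, shuttle receptors, the ubiquitin genes and the regulators NFE2L1, DDI2 and NGLY1. With limma, 1 of the 34 passed an unadjusted p of 0.01 (3.13% of all tested genes) and 4 did with the replicate block (7.57% of all tested genes). None passed an adjusted p of 0.05. The median log2 fold change was 0.04, with 19 higher. UBE3A, a ubiquitin ligase that binds the proteasome, measured 9.43, 9.92 and 8.78 RPKM after CD73 siRNA and 3.77, 7.14 and 6.33 RPKM in the controls. All treated samples were above all controls, control sample 1 was lowest, and the log2 fold change was 0.66 with an SE of 0.19 and an adjusted p of 0.315. It no longer passed the unadjusted limit of 0.01 with a pseudocount of 0.1, without the filter, as TPM, without moderation, or without any 1 of the CD73 siRNA samples or control sample 3.

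The additional calls under the block included NFE2L1 (adjusted p = 0.120) and PSMB8 (adjusted p = 0.119), by limma. NFE2L1 measured 54.3, 46.1 and 67.7 RPKM after CD73 siRNA and 31.2, 41.0 and 49.6 RPKM in the controls, higher in the treated sample of each number although the groups overlapped. For PSMC3, UBE3A and NFE2L1 alike, control sample 1 was the lowest of the 6 samples, and without it the log2 fold change of UBE3A was 0.42 (adjusted p = 0.654, limma) and that of NFE2L1 was 0.29 in place of 0.46. PSMB8 measured 2.73, 3.36 and 2.34 RPKM after CD73 siRNA and 4.69, 4.56 and 3.09 RPKM in the controls, lower in each number. The other immunoproteasome subunit left out of the member rule, PSMB9, measured 2.11, 2.67 and 1.84 RPKM after CD73 siRNA and 3.998, 3.31 and 2.28 RPKM in the controls, with overlap and a log2 fold change of -0.38 that did not pass (adjusted p = 0.449, limma).

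**Figure D5:**
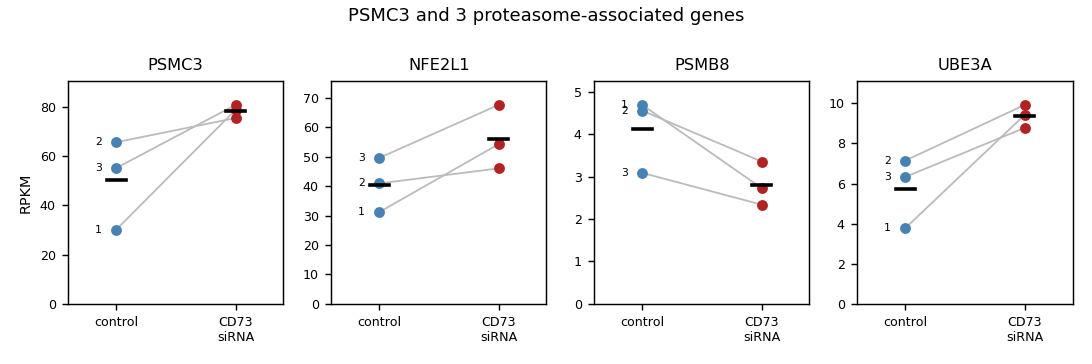
RPKM per sample of PSMC3 and of 3 proteasome-associated genes that passed an unadjusted p of 0.01 without or with the replicate block. Lines join equal replicate numbers and black bars are group means; PSMC3, NFE2L1 and UBE3A are lowest in control sample 1.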

How the data were processed

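The authors deposited 1 table per sample with a value for each of 30735 Ensembl gene IDs, and these values were RPKM. No header states this unit. It was read from the values, which multiplied by the exon length in GENCODE release 29 came out as whole reads of 1 fixed size per library in 95.5% to 95.6% of genes under 1000 reads (tolerance 0.05 read). That size gave the read numbers, which were described and not tested. The submitters' processing notes name bcl2fastq, Bowtie2 2.2.3, HTSeq 0.6.0 and hg38, and the counting mode and annotation are not given in the sources used here. Of the IDs, 30603 matched release 29, 132 did not, and 30384 had a symbol in the name table.

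Groups and numbers were taken from the sample labels. The 12527 genes that reached 1 RPKM in 3 or more samples were tested on log2(RPKM + 1) with limma 3.58.1 in R 4.3.3 (lmFit, eBayes with a trend, Benjamini-Hochberg), which understates the changes of low genes. The number effect was an F test beside treatment. All p-values are two-sided, and the script was tested on simulated data. Deviations of samples with equal number correlated at 0.197, 0.481 and 0.553 over genes, each above 0.1, and those with different numbers at -0.439 to -0.006. The deviations of a gene sum to 0 within each group, so positive values at equal numbers force negative ones among different numbers. By the limit of 0.1 at equal numbers, the numbers pair the samples, although no label says what they shared.

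The members and lists were chosen with earlier results of these data known. Genes named are the members past p 0.01 or with groups that do not overlap, the extreme fold changes and levels of each role, the catalytic subunits, PSMB10, the 5 smallest p-values by number, the members failing the filter, NT5E, and the associated genes past p 0.01 (without or with the block) or without overlap, some of which are not reported here. PSMB9 was named as the other subunit left out of the rule, and PSMA1, PSME1, PSMG4 and PSMC3IP beside results they touch. Alternatives were a pseudocount of 0.1, no filter, median centring, TPM, the replicate block, no moderation and each sample left out. The study's other experiments were not analysed here.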

Additional observations from a re-analysis of the deposited data

How the results depend on the processing

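Over 12 alternatives of the treatment fit, 25 of the 30 named and tested genes kept their direction, and 333 of 360 values kept direction and side of the limit. The replicate block, no moderation and no filter leave each gene's fitted log2 fold change as it was, so no direction could change there. The count of members past p 0.01 was 0 to 1 with a sample left out (1, PSMC3, without control sample 2) and 0 otherwise, and the replicate block changed no member's call. All-gene counts were 948 with the block, 216 without moderation and 116 to 792 with a sample left out (116 without CD73 siRNA sample 1, 188, 792 and 258 without control samples 1, 2 and 3), against 392. For the associated list the count was 4 with the block, 0 with a pseudocount of 0.1, no filter, TPM or no moderation, and 0 to 2 with a sample left out (0 without any of the CD73 siRNA samples, 2 without control sample 2). By number, 0 members passed after median centring or without the treatment term, and that last fit called 543 of all genes against 1161.

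Sign changes among these named genes occurred in 5. The log2 fold changes of PSMC2, PSMD12, PSMD6 and PSME3IP1 were near 0. That of PSMD5 was -0.12, as large as the median size of 0.12 over the members. After centring, PSMC2 was -0.0062, and under TPM PSMD12 was 0.0075 and PSME3IP1 0.024. With a sample left out, PSMC2 ranged from -0.021 to 0.050, PSMD12 from -0.107 to 0.093, PSMD5 from -0.239 to 0.019, PSMD6 from -0.045 to 0.110 and PSME3IP1 from -0.075 to 0.087. The cause of these shifts was not tested. With 3 samples a group, changes well under 1.5-fold could not be resolved from the spread between samples, and read depth limits PSMA8, PSMB11 and PSMB10.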

Other observations

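The level of PSMC4 was set beside those of its neighbours, a comparison chosen after its level had been seen. Within 500 kb either side of PSMC4 on chromosome 19 lie 24 other coding genes with a row, with a median of 9.93 RPKM against 3.15 RPKM over 16708 coding genes. Of these, 3 were above 100 RPKM, the fibrillarin gene FBL at 740 RPKM, the mitochondrial import gene TIMM50 at 185 RPKM and the kinase gene AKT2 at 121 RPKM, whereas 1.58% of all coding genes were. Among pseudogenes named after members, PSMC1P1 was at 2.75 RPKM and PSMA6P1 at 0.936 RPKM, above PSMA6 itself at 0.306 RPKM. By reads the order was the reverse, with 8 to 16 per sample for PSMA6P1 and 22 to 44 for PSMA6.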
